A study of Mus musculus with 4 samples.

Results

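The miR-23, miR-27 and miR-24 microRNAs (miRNAs) are made from 2 paralogous gene clusters, one holding mir-23a, mir-27a and mir-24-2 and the other mir-23b, mir-27b and mir-24-1. The 10 mature strands of these hairpins that were chosen by name are described here, out of 1915 mature mouse miRNAs in the deposited table, of which 1101 had at least 1 count. Small RNA was sequenced from MIN6 cells, a mouse insulinoma line used as a model of the pancreatic β-cell, and from exosomes that were pelleted by ultracentrifugation from the medium those cells had conditioned. There were 2 libraries of cells and 2 libraries of exosomes, all from this single tumor line grown in medium with exosome-depleted serum, and no treatment or genetic change separated the groups. The exosome libraries were checked for quality on a Bioanalyzer and the cell libraries on a TapeStation, and whether the replicates came from separate cultures was not given in the sources used here, so the p-values measure the spread between these libraries, which may be technical.

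A miRNA cluster is transcribed as 1 long precursor from which several hairpins are cut, and each hairpin can give a 5p and a 3p mature strand. The mature strand is loaded on an Argonaute protein and pairs with messenger RNAs mainly through its seed, which is the stretch near its 5′ end. miR-27 is known as an inhibitor of adipocyte differentiation and a regulator of lipid metabolism, miR-23 for its control of glutaminase, and miR-24 as one of the miRNAs that sustain insulin expression in β-cells.

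In the mouse genome (GRCm38/mm10) the hairpin genes Mir23a (chr8:84208518-84208592), Mir27a (chr8:84208672-84208758) and Mir24-2 (chr8:84208815-84208921) lay on the plus strand within 404 bases. Mir23a and Mir27a were intergenic in GENCODE vM21, Mir24-2 overlapped an exon of the long non-coding RNA gene Gm26532, and the nearest protein-coding gene, Zswim4, was 1757 bases away. Mir23b (chr13:63300484-63300557) lay in an intron of the protein-coding gene 2010111I01Rik, and Mir27b (chr13:63300712-63300784) and Mir24-1 (chr13:63301208-63301275) overlapped an exon of at least 1 of its annotated transcripts, all on its strand and within 792 bases. The 3 hairpins of this cluster also lay opposite an intron of Fancc, a gene of the Fanconi anemia DNA repair pathway.

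**Figure D1:**
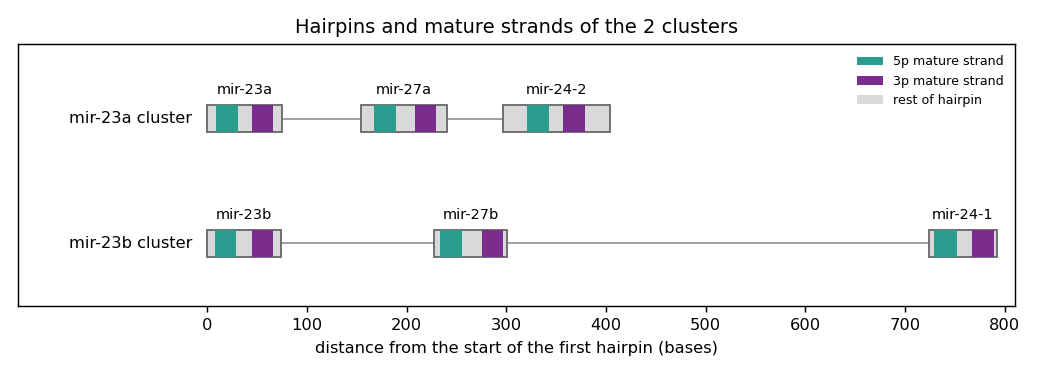
Hairpins (boxes) and their 5p and 3p mature strands (colored) along each cluster, with the distance from the start of the first hairpin in bases on the x axis. Both clusters have the order miR-23, miR-27, miR-24, over 404 bases in the mir-23a cluster and 792 bases in the mir-23b cluster.

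The mature sequences are shown because the paralogues are told apart by very few bases. The 3p strands are given first, 5′ to 3′, with the seed (bases 2 to 8) in capitals.
mmu-miR-23a-3p: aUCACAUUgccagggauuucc
mmu-miR-23b-3p: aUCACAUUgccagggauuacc
mmu-miR-27a-3p: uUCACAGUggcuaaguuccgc
mmu-miR-27b-3p: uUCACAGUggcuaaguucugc
mmu-miR-24-3p: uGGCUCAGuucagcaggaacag
The 5p strands follow, with the seed marked in the same way.
mmu-miR-23b-5p: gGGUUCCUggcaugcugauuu
mmu-miR-27a-5p: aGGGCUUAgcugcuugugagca
mmu-miR-27b-5p: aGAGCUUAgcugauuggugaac
mmu-miR-24-1-5p: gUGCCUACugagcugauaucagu
mmu-miR-24-2-5p: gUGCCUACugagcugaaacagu

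The sequences came from the deposited tables. The 2 miR-23 3p strands share the seed UCACAUU, and over their 21 bases they differ at a single position, U19A, counted from 1 at the 5′ end of miR-23a-3p. The 2 miR-27 3p strands share the seed UCACAGU and differ only by C19U, from miR-27a-3p to miR-27b-3p. The 2 miR-24 5p strands share their first 16 bases. miR-24-3p is the same molecule from either cluster, and the deposited hairpin tables counted each of its reads on both hairpins, so it cannot be assigned to a cluster. How reads that ended before base 19 were divided between the paralogues was not given in the sources used here, and every a-to-b comparison below carries that limit.

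The cell libraries held 2930217 and 2564068 counts on mature miRNAs, and the exosome libraries 47447 and 31409. A floor of 3 counts corresponded to 1.02 and 1.17 reads per 1000000 mature counts (RPM) in the cells but to 63.2 and 95.5 RPM in the exosomes, and 6 of the 10 members were under 95.5 RPM in both cell libraries. Trimmed mean of M values (TMM) scaling set the 2 cell libraries at factors 0.66 and 0.612 but the 2 exosome libraries at 1.8 and 1.38, a wide gap that lowers every exosome level against the RPM. The cells showed the β-cell miRNAs, with the 7 listed (such as miR-375-3p and miR-7a-5p) summing to 56251 and 55226 RPM, against 32247 and 14232 RPM in the exosomes. In cells the 7 ran from 26831 and 26158 RPM for miR-7a-5p down to 6.48 and 9.36 RPM for miR-96-5p, so a few of them carry the sum. Of 14 listed miRNAs of blood, liver, endothelial and mesenchymal cells, 13 were tested and all 13 were higher in exosomes (edgeR quasi-likelihood test), where 23.7% of all tested miRNAs were. Several, such as miR-451a and miR-142a-3p with 0 counts in both cell libraries, entered the test only through the exosome libraries. Their direction was thus fixed in advance, and no conclusion is drawn from the number called. Together the 14 held 0.00706% and 0.00854% of the cell counts and 2.12% and 1.53% of the exosome counts, with 5, 4, 0 and 1 of the 14 at 0. Their part in the member levels was not tested.

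The members as a whole took a smaller share of the exosome libraries than of the cells. They held 1.67% and 1.51% of the mature counts of the 2 cell libraries and 0.807% and 0.987% of those of the 2 exosome libraries, a mean of 1.59% ± 0.115 (SD, n = 2) against 0.897% ± 0.127 (SD, n = 2). The groups did not overlap, and the difference of -0.696 percentage points had p = 0.333 (two-sided exact permutation test), which is the smallest p that 2 libraries against 2 can give.

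The mir-23b cluster accounted for this difference. Its 5 strands, without miR-24-3p, took 1.01% and 0.901% of the counts in cells and 0.276% and 0.0955% in exosomes (exact permutation p = 0.333). The 4 strands of the mir-23a cluster took 0.146% and 0.148% in cells and 0.177% and 0.131% in exosomes, so that the exosome values lay on both sides of the cell values (exact permutation p = 1). miR-24-3p, which either cluster can supply, took 0.518% and 0.463% in cells and 0.354% and 0.761% in exosomes (exact permutation p = 1), with the exosome libraries again on both sides. The 95% Clopper-Pearson intervals in the plot of shares cover counting error only.

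**Figure D2:**
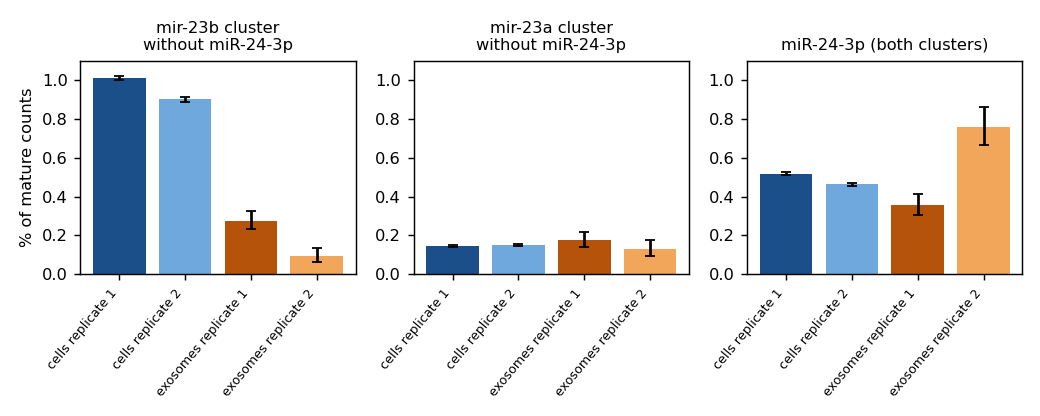
Percent of mature counts of each library on the mir-23b cluster, the mir-23a cluster (both without miR-24-3p) and miR-24-3p, with 95% Clopper-Pearson intervals as error bars. For the mir-23b cluster, exosomes stood at 0.276% and 0.0955% and cells at 1.01% and 0.901%, while the other 2 sets had exosome values on both sides of the cell values.

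miR-23b-3p was the most abundant member in cells, and it carried most of this difference. It stood at 9524 and 8447 RPM in cells, ranks 16 and 18 among all miRNAs, and at 2529 and 891 RPM in exosomes, ranks 54 and 69. Both exosome libraries were below both cell libraries, and the exosome libraries differed from each other more than the cell libraries did. On the TMM scale it was 14124 ± 458 counts per 1000000 (CPM) in cells and 1033 ± 539 CPM in exosomes (SD, n = 2 each), a log2 fold change of -3.76 (SE 0.59; edgeR quasi-likelihood test, adjusted p = 0.0127). At the cell level 1198 and 606 counts would have been seen in the exosome libraries, where 120 and 28 were counted. With scaling by library size alone its log2 fold change was -2.38 and no longer passed the test (edgeR, adjusted p = 0.0527).

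miR-23a-3p, which has the same seed, did not follow it. It stood at 1380 and 1400 RPM in cells and at 1665 and 1274 RPM in exosomes, so the exosome values enclosed the cell values. On the TMM scale it was 2190 ± 137 CPM in cells and 931 ± 0.0369 CPM in exosomes (SD, n = 2 each), with a log2 fold change of -1.23 (SE 0.35; edgeR quasi-likelihood test, adjusted p = 0.0433), but with library size alone the log2 fold change was 0.09, with the opposite sign and no call. Its direction therefore depended on the scaling. The very small exosome SD on the TMM scale came from 79 and 40 counts and does not measure precision, since the same libraries stood at 1665 and 1274 RPM.

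The ratio of the miR-23 paralogues within a library does not depend on that scaling. miR-23a-3p made up 12.7% (95% Clopper-Pearson interval 12.3 to 13.0) and 14.2% (13.8 to 14.7) of the miR-23 3p counts in the cell libraries. In exosomes it made up 39.7% (32.8 to 46.9) and 58.8% (46.2 to 70.6), from 199 and 68 counts. The mean log2 ratio of miR-23a-3p to miR-23b-3p was 2.65 higher in exosomes, a 6.26-fold difference, and the groups did not overlap (two-sided exact permutation test, p = 0.333). In both exosome libraries miR-23a-3p thus made up a far larger part of the miR-23 3p counts than in either cell library. The intervals of the exosome libraries overlapped between 46.2% and 46.9%.

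miR-27 was the least abundant family of 3p strands in both clusters, with a ratio of miR-23 to miR-27 of 21.3 and 19.8 in the mir-23a cluster and of 23 and 20.9 in the mir-23b cluster in cells. miR-27b-3p stood at 414 and 403 RPM in cells and at 105 and 0 RPM in exosomes, from 5 and 0 counts where 54.6 and 27.6 would have been seen at the cell level. Both exosome libraries were below both cell libraries, with a log2 fold change of -4.14 (SE 0.89; edgeR quasi-likelihood test, adjusted p = 0.0237) and of -2.76 with library size alone (edgeR, adjusted p = 0.0763). It would not have entered the test without its cell counts, so the call is no separate support. Without exosome replicate 2 the log2 fold change was -3.40, and without exosome replicate 1 the remaining exosome library had 0 counts, so that the fitted value of -12.57 is no measure of size. miR-27a-3p stood at 64.8 and 70.6 RPM in cells and at 84.3 and 0 RPM in exosomes, from 4 and 0 counts, so the exosome values lay on both sides of the cells. Its log2 fold change of -1.83 (SE 0.83; edgeR quasi-likelihood test, adjusted p = 0.126) did not pass the test.

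The share of miR-27a-3p among miR-27 3p counts was 13.5% and 14.9% in cells, close to that of miR-23a-3p among miR-23. In exosomes it was 4 of 9 counts (44.4%, Clopper-Pearson interval 13.7 to 78.8) in replicate 1 and could not be had in replicate 2, where neither was counted. In exosome replicate 1 the ratio of miR-23a-3p to miR-27a-3p was 19.8 and that of miR-23b-3p to miR-27b-3p was 24. Each miR-27 strand thus kept about the same ratio to its cluster neighbor in that library as in cells, although the ratios rest on 4 and 5 counts of miR-27.

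**Figure D3:**
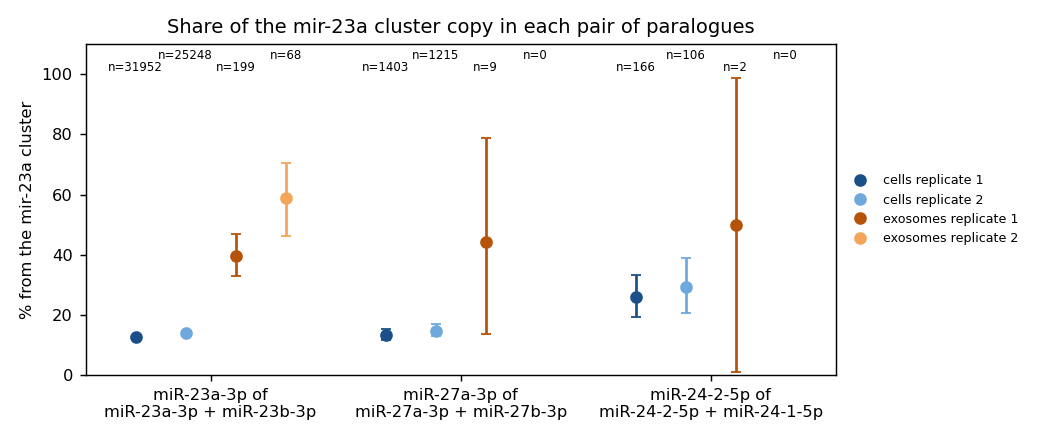
Percent of each pair of paralogues that came from the mir-23a cluster in each library, with 95% Clopper-Pearson intervals and the counts of both paralogues (n) above. For miR-23, exosomes stood at 39.7% and 58.8% and cells at 12.7% and 14.2%; for miR-27 and the miR-24 5p strands the exosome libraries held at most 9 counts.

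miR-24-3p was the member with the highest level in exosomes. It stood at 5184 and 4628 RPM in cells, ranks 26 and 28, and at 3541 and 7609 RPM in exosomes, ranks 43 and 19. One exosome library was below and one above both cell libraries by RPM. On the TMM scale both exosome libraries, at 1981 and 5566 CPM, were below the cell mean of 7712 ± 214 CPM (SD, n = 2), and the log2 fold change of -1.04 (SE 0.63; edgeR quasi-likelihood test, adjusted p = 0.218) did not pass the test and had the opposite sign, 0.19, with library size alone. When 1 exosome library was dropped, the log2 fold change of miR-24-3p was -0.52 (replicate 1 dropped) or -1.92 (replicate 2 dropped). When 1 cell library was dropped, it was -1.01 (replicate 1 dropped) or -1.06 (replicate 2 dropped). No call is read from these fits, since a lone library shows no spread within its group.

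Among the 5 strands on the 3p arm, miR-24-3p took the place of miR-23b-3p as the leading strand. miR-23b-3p made up 57.5% and 56.5% of the 3p counts in cells and 31.9% and 9.12% in exosomes. miR-24-3p made up 31.3% and 31.0% in cells and 44.7% and 77.9% in exosomes, while miR-23a-3p made up 8.33% and 9.37% in cells and 21.01% and 13.0% in exosomes. Each of these 3 shares separated the groups with the smallest possible p of 0.333 (exact permutation test). The ratio of miR-24-3p to miR-23b-3p was 0.544 and 0.548 in cells and 1.40 and 8.54 in exosomes. Its ratio to miR-23a-3p was 3.76 and 3.31 in cells and 2.13 and 5.98 in exosomes, which overlapped (exact permutation p = 1).

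The 5p strands were the less abundant arm of every one of these hairpins in cells. miR-23b-5p stood at 44.4 and 51.1 RPM in cells and at 105 and 63.7 RPM in exosomes, from 5 and 2 counts, and was the only member with both exosome libraries above both cell libraries by RPM. Its log2 fold change was -0.47 (SE 0.44; edgeR quasi-likelihood test, adjusted p = 0.454) on the TMM scale and 0.88 with library size alone, and neither passed the test. The 5p strand made up 0.464% and 0.601% of miR-23b counts in cells, but 4.00% (5 of 125, Clopper-Pearson interval 1.31 to 9.09) and 6.67% (2 of 30, interval 0.818 to 22.1) in exosomes. The log2 ratio of 5p to 3p was 3.36 higher in exosomes (exact permutation p = 0.333).

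The 5p strand of the paralogous hairpin, miR-23a-5p, was not among the chosen strands, but its values bear on this ratio. It had 25 and 22 counts in cells and 3 and 5 in exosomes, which made 0.614% and 0.609% of miR-23a counts in cells and 3.66% and 11.1% in exosomes (log2 ratio 3.48 higher, exact permutation p = 0.333). Unlike the members, miR-23a-5p was called higher in exosomes, with a log2 fold change of 2.29 (SE 0.68; edgeR quasi-likelihood test, adjusted p = 0.0491). With library size alone its log2 fold change was 3.60 (edgeR, adjusted p = 0.0140). With no filter it was 1.02 and not called (edgeR, adjusted p = 0.369). Both miR-23 hairpins thus had a larger 5p share in both exosome libraries than in either cell library, from 2 to 5 counts of the 5p strand per exosome library.

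miR-27b-5p was the most abundant 5p strand in cells, where it stood at 78.2 and 78.4 RPM and made up 15.9% and 16.3% of miR-27b counts. It had 0 counts in both exosome libraries, where 10.5 and 5.3 would have been seen at the cell level on the TMM scale. Against the floor of 3 counts per library it was at least 2.34-fold lower in exosomes by TMM CPM (edgeR quasi-likelihood test, adjusted p = 0.0182). It entered the test through its cell counts alone. With 0 exosome counts its direction was then fixed, and the call is no separate support. By RPM its cell mean was 0.986 of the mean floor of the 2 exosome libraries, so no fold is given there, although it was the 1 member called lower with library size alone (edgeR, adjusted p = 0.0385).

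The miR-24 5p strands were near the limit of the exosome libraries. miR-24-1-5p stood at 42.0 and 29.3 RPM in cells and had 1 and 0 counts in exosomes, a ratio of exosomes to cells of 0.138 on the TMM scale (exact counting interval 0.00349 to 0.78). miR-24-2-5p stood at 14.7 and 12.1 RPM in cells and had 1 and 0 counts in exosomes, a ratio of 0.37 (interval 0.00925 to 2.13), so that a difference was not detectable at this depth. miR-27a-5p had 6 and 2 counts in cells and 0 and 1 in exosomes and was the member left out of the test for low counts. In cells miR-24-2-5p, from the mir-23a cluster, made up 25.9% and 29.2% of the miR-24 5p counts, above the 12.7% to 14.9% that the a copies of miR-23 and miR-27 held.

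**Figure D4:**
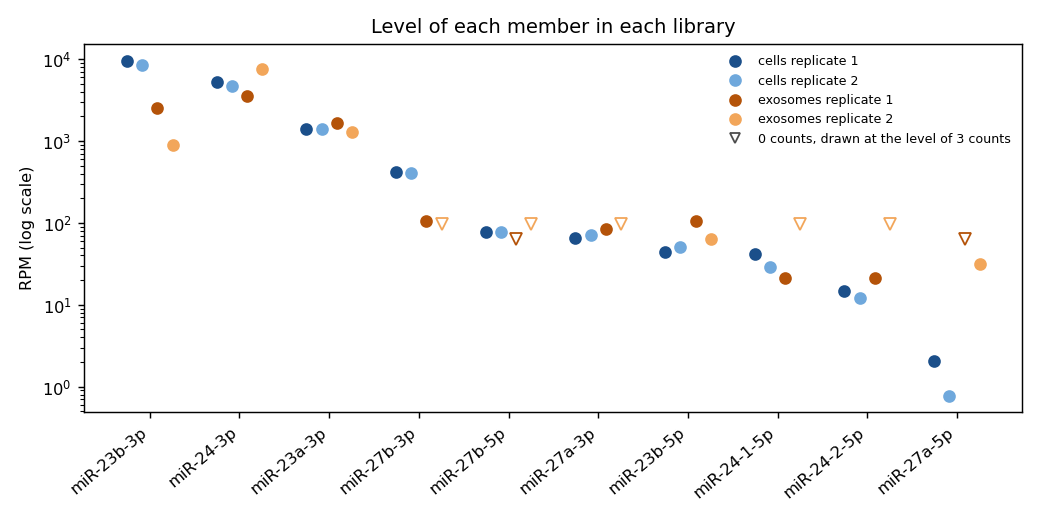
RPM (log scale) of the 10 members in each of the 4 libraries, ordered by their mean in cells, with open triangles at the level of 3 counts where none was counted. miR-23b-3p and miR-27b-3p lie lower in both exosome libraries, miR-23a-3p and miR-24-3p have exosome values on both sides of the cells, and the exosome points at or below 105 RPM rest on at most 5 counts.

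Across the table, 438 miRNAs were tested, 9 of the members among them. 4 of the 9 were lower in exosomes (miR-23a-3p, miR-23b-3p, miR-27b-3p and miR-27b-5p), where 29.5% of all tested miRNAs were lower, and 0 of the 9 were higher, where 23.7% of all were (edgeR quasi-likelihood test, Benjamini-Hochberg adjustment). Of the 4, miR-27b-5p had 0 exosome counts and miR-27b-3p had 5 and 0. Neither would have entered the test without its cell counts, so these calls are no separate support. At an unadjusted p under 0.05, by DESeq2 and by the edgeR exact test the members higher also numbered 0. With library size alone 1 of the 9 (miR-27b-5p) was lower, against 6.85% of all. Without cell replicate 1 or without cell replicate 2 the test called 0 of the 9 and 0 of all 438 lower, and without exosome replicate 1 it called 7 of the 9 and 159 of all, against 129 of all with every library. Both exosome libraries were below both cell libraries in 9 of the 9 members by TMM CPM, where 51.8% of all miRNAs were, and in 4 of the 9 by RPM, where 33.8% of all were. Those 4 were miR-23b-3p, miR-24-1-5p, miR-27b-3p and miR-27b-5p, all of the mir-23b cluster, and by RPM 1 of the 9 lay above in both, where 41.3% of all did. The cell means of miR-24-1-5p (35.6 RPM) and miR-27b-5p (78.3 RPM) were under the 3-count floor of at least 1 exosome library (63.2 and 95.5 RPM). Their place by RPM was therefore not resolved at this depth.

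By cluster, 3 of the 5 tested strands of the mir-23b cluster and 1 of the 3 of the mir-23a cluster were called lower, where 29.5% of all tested miRNAs were. By arm, 3 of the 5 strands on the 3p arm and 1 of the 4 tested on the 5p arm were called lower, beside the same share. With library size alone only miR-27b-5p, with 0 exosome counts, was called, against 6.85% of all. With so few strands, no contrast between clusters or arms is drawn from these calls. The median log2 fold change of the 9 members was -1.83, beside -0.75 over all tested miRNAs, and -0.45 beside 0.61 with library size alone, so that the choice of scaling moved both medians by more than 1 log2 unit. With every miRNA at or under the floor in 1 group placed at its bound, the medians were -1.23 and 0.

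**Figure D5:**
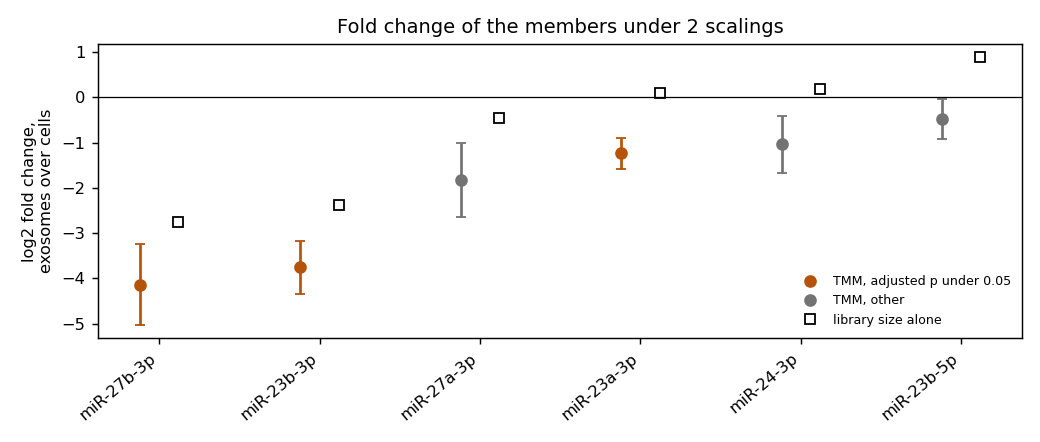
Log2 fold change of exosomes over cells for the 6 members with more than 3 counts in an exosome library, with TMM scaling (circles, bars are the SE, colored where the adjusted p was under 0.05) and with library size alone (squares). miR-27b-3p, miR-23b-3p and miR-27a-3p lie below 0 under both scalings, and miR-23a-3p, miR-24-3p and miR-23b-5p lie below 0 with TMM and above 0 with library size alone.

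miR-24 belongs to a small group of miRNAs known to sustain insulin expression in β-cells, and the other members of that group were read beside it. 4 of its 6 miRNAs were lower in exosomes on the TMM scale, where 29.5% of all tested miRNAs were, and 0 were higher, where 23.7% of all were. miR-26a-5p, with 2172 and 1786 counts in cells and 25 and 19 in exosomes, had a log2 fold change of -1.64, and miR-26b-5p, with 2216, 1914, 20 and 6 counts, had -2.62. miR-148a-3p and miR-148b-3p were also called, each with 1 and 0 counts in exosomes. Both entered the test through their cell counts alone, so their direction was fixed and these calls are no separate support. miR-24-3p and miR-182-5p did not pass the test, and miR-24-3p held the most exosome counts of the 6, with 168 and 239. The median log2 fold change of the group was -2.13 (-1.49 with the miRNAs at the floor placed at their bound), beside -0.75 over all tested, and with library size alone 1 of the 6 was called lower, against 6.85% of all.

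miR-128-3p (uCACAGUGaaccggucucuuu, seed in capitals) is the miRNA whose seed overlaps that of miR-27, with 8 bases in common with miR-27 counted from base 2 of miR-27. It had 1473 and 1303 counts in cells and 4 and 4 in exosomes, a log2 fold change of -3.60 (edgeR quasi-likelihood test, adjusted p = 0.0102), which set it lower in exosomes along with miR-27b-3p.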

How the data were processed

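Small RNA libraries of MIN6 cells (n = 2) and MIN6-derived exosomes (n = 2) were prepared with a SMARTer smRNA-Seq kit. Adapter trimming, removal of rRNA reads and alignment to the genome, miRBase 21 and RNAcentral were done by the authors, who deposited raw read counts per mature miRNA, RPM values relative to the mature total of each library, and counts per hairpin. Their processing notes name mm10, cutadapt, Bowtie, STAR, RSEM, Bowtie2 and edgeR without roles. Counts were tested with edgeR 4.0.16 in R 4.3.3 (quasi-likelihood test, TMM, filterByExpr with a minimum count of 10, Benjamini-Hochberg threshold 0.05 over 438 miRNAs), since the edgeR exact test of the study does not allow for the uncertainty of a dispersion estimated from 2 libraries. That test with the study's thresholds (fold of 2, unadjusted p) and DESeq2 1.42.0 were alternatives. Within-library ratios and shares were compared by an exact permutation test, two-sided. Intervals and floors (3 counts per library) cover counting error only, since no molecular identifiers were used. The scripts were tested on simulated data. Members were the strands named for these clusters, and the miRNAs named were these, those of the fixed lists and the 3 nearest in level to the most abundant member. The members and lists were chosen with earlier results of these data known.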

Additional observations from a re-analysis of the deposited data

How the results depend on the processing

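The members called lower in exosomes were 4 of 9 with TMM, where 129 of all 438 miRNAs were called lower. With library size alone they were 1 of 9, beside 30 of all 438. With no filter they were 7 of 10, beside 202 of all 1101 with a count. With at least 10 counts in every library they were 2 of 3 tested, beside 40 of all, whose number tested is not given here. Leaving out a library gave 0 to 7, with 0 without either cell library (where 0 of all 438 miRNAs were called) and 7 without exosome replicate 1. The lone library is then assumed to vary like the other group. The median member log2 fold change ran from -7.64 to -1.78 over those fits. The insulin-expression group, 4 called, had 1 with library size alone, 1 with at least 10 counts in every library and 0 to 6 with a library left out. Members below both cell libraries were 9 of 9 by TMM CPM, where 51.8% of all miRNAs were, and not all were resolved at this depth. By RPM, an alternative chosen after seeing the data, they were 4 of 9, where 33.8% of all were. With library size alone miR-23a-3p, miR-23b-5p and miR-24-3p had log2 fold changes of 0.0904, 0.88 and 0.19, and miR-23b-5p had 0.21 with upper quartile scaling. The log2 difference of the miR-24 5p to 3p ratio was -0.83 with a pseudocount of 0.5 in place of 0.27 over the libraries with counts. The totals over all miRNAs given above for TMM, library size alone and at least 10 counts everywhere are also the background for the insulin-expression group. With 1 library left out, the log2 difference of the miR-23 paralogue ratio ran from 2.09 to 3.204, of the miR-23b arm ratio from 2.97 to 3.75, and of the share on the members from -0.786 to -0.606 percentage points. The share of miR-23b-3p among the 3p strands ran from -47.9 to -25.1 and that of miR-24-3p from 13.6 to 46.7 percentage points (both chosen after seeing the data). Of 184 fold changes of members and listed miRNAs under the alternatives, 139 kept their direction and side of the threshold, 30 lost the call, 11 gained one and 4 reversed. The replicate numbers mark no shared culture or day in the labels, and with the replicate number as a block 3 members were called lower, since miR-23a-3p was no longer called; the deviations of same-numbered libraries correlated at 0.194 over 438 miRNAs. At the exosome depth of 47447 and 31409 counts, members at or below 105 RPM there rest on at most 5 counts.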

Other observations

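Few reads of the cluster hairpins fell outside the annotated arms. In cells 2 of 64294 and 7 of 50664 hairpin reads were on neither arm, and in exosomes 3 of 555 and 0 of 554, where miR-24-3p reads were counted on both of their hairpins. Pooled over all hairpins the shares were 10.9% and 9.58% in cells and 32.8% and 42.0% in exosomes. The median share per hairpin, among those with 10 reads or more, was far lower. It was 0% for each cell replicate, 0.275% for exosome replicate 1 and 6.45% for exosome replicate 2. Few off-arm reads were thus usual for a hairpin in cells and in exosome replicate 1, and are no special trait of these clusters there.

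The 3 miRNAs outside the clusters with levels nearest to those of miR-23b-3p over the 4 libraries were miR-7b-5p, miR-483-3p and miR-183-5p, at Euclidean distances of 0.60, 0.73 and 0.86 in TMM log2 CPM. miR-7b-5p and miR-183-5p are on the β-cell list. miR-7b-5p had 24894 and 21101 counts in cells and 134 and 19 in exosomes, and miR-483-3p had 20587, 18787, 100 and 20. The cluster neighbor of miR-23b-3p, miR-27b-3p, lay at a distance of 11.3 from it, miR-23a-3p at 3.89 and miR-24-3p at 3.36. The 3 miRNAs were picked as the nearest, so no conclusion is drawn from the members lying farther. The distance compares levels in each library and not the change between cells and exosomes.

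Opposite the miR-24 hairpins the annotation holds the hairpins Mir3074-1 and Mir3074-2. Their strands miR-3074-1-3p and miR-3074-5p had 11 and 5, and 7 and 4 counts in cells, and 0 in both exosome libraries, and miR-3074-2-3p had 0 counts in all 4.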
